A study of Mus musculus with 16 samples.

Results

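The genes of the vacuolar proton pump (V-ATPase) and of the lysosomal membrane were followed in microglia sorted by their uptake of Methoxy-X04 (Me-X04), a dye that enters the brain and binds amyloid aggregates. Members were the rows whose deposited symbol begins with Atp6v or Atp6ap, together with 23 named genes, and 44 of the 17951 genes listed met this rule. They comprise 9 subunits of the membrane sector V0, 10 subunits of the cytosolic sector V1, 2 accessory proteins, and 22 lysosomal membrane proteins and partners. The remaining symbol, Atp6v1fnb, is a neighbour of Atp6v1f and not a pump subunit, and it had at most 19 reads in a library. Npc2 and Grn are soluble proteins of the lysosomal lumen and count here as partners.

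All libraries came from Cd11b+ and Cd45+ cells of mouse brain, which the methods also gate on CX3CR1, after injection of the dye. There were 7 WT libraries, 5 libraries of dye-negative cells of 5xFAD transgenic mice (TG Me-X04-) and 4 of dye-positive cells of those mice (TG Me-X04+). By the labels the WT mice were 2 months old and the TG mice 6 months old, so age and genotype cannot be told apart in comparisons with WT, and the methods of the study give other ages. The transgenes of the 5xFAD mouse are under the Thy1 promoter, which is used to drive expression in neurons, and the labels give the strain name 5xFAD for WT libraries too. With the number in their titles taken as the animal, both dye fractions of 4 transgenic animals were sequenced. Statements by animal rest on this reading of the titles, and the WT libraries come from other mice. Hereafter Me-X04- and Me-X04+ stand for the dye-negative and dye-positive fractions of the transgenic mice.

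The V-ATPase uses ATP to pump protons into endosomes, phagosomes and lysosomes. Its V1 sector splits ATP in the cytosol, and its V0 sector, with a rotating ring of proteolipids and a large subunit a, carries protons through the membrane. V1 can leave V0 and return, and lysosomal hydrolases, transporters and ion channels depend on the acid that the whole pump makes. Several genes of this system carry in their promoters the E-box of the CLEAR element, read by factors of the TFEB family.

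Values are log2 RPKM, that is, reads corrected for gene length and for the scaled size of the library, so levels can be compared between genes. The libraries held between 15623664 and 27579017 reads on the listed genes. Reads of mitochondrial genes took 10.96% to 24.1% of WT, 18.2% to 35.6% of Me-X04- and 27.2% to 44.8% of Me-X04+ libraries, and the part of this share in the results was not tested beyond the scaling given with them. The first principal component, with 37.8% of the variance, split the libraries into a set A of 7 and a set B of 9, each with libraries of all 3 groups. The 8 microglial markers were listed, with a summed level of at least 3952 RPKM in each library, while the 4 T cell markers were not listed and the neuronal sum stayed at or under 1.91 RPKM. The median sum of 3 listed endothelial markers was 10.29 RPKM in WT, 2.28 in Me-X04- and 1.97 in Me-X04+, with up to 8.23 in a Me-X04+ library. These 3 did not move together. In the same order of groups, mean log2 RPKM was -5.50, -3.18 and 0.37 for Flt1, 2.89, 0.53 and -1.94 for Pecam1, and -0.56, -0.74 and -1.72 for Kdr. The median sum of 3 listed markers of monocytes and neutrophils was 3.40, 2.41 and 7.07 RPKM, with up to 22.2 RPKM in a Me-X04- library. The sum of 5 markers of border macrophages was 1.5 to 5.84 RPKM in Me-X04- and 2.49 to 19.3 RPKM in Me-X04+. The part of these marker sums in the results was not tested. In sorted bulk cells, a change in which cells were captured and a change in RNA per cell cannot be told apart.

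The promoter element was read first. RefSeq promoters (GRCm38.p6, 250 bases before the start to 50 after it) were at hand for 35 of the 44 members. The 8 bases TCACGTGA, which read the same on both strands, stood in the promoters of 7 of these 35 members (20%) and of 304 of 27025 genes (1.12%). Its 6-base core CACGTG, which every TCACGTGA also holds, stood in 9 of the 35 (25.7%) and in 8.09% of all genes. Stretches around the matches are printed because they set apart the members with the element. Capitals mark every match in the stretch, each stretch runs 5′ to 3′ on the strand of the gene, and those that reach past the start were kept to 30 bases.
Atp6v1a, chr16:44139338-44139437, minus strand: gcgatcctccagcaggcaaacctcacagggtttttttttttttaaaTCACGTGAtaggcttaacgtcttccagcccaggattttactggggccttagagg
Cln3, chr7:126583305-126583404, minus strand: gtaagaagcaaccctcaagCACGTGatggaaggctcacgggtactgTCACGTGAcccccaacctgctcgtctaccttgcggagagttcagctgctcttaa
Mcoln1, chr8:3500427-3500518, plus strand: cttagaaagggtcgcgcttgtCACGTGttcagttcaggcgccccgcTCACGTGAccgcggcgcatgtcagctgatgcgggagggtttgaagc
Cd164, chr10:41519366-41519465, plus strand: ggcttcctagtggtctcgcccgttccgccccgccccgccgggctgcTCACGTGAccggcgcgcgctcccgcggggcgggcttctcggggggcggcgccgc
Atp6v0d1, chr8:105566050-105566079, minus strand: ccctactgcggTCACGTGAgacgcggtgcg
Clcn7, chr17:25133386-25133415, plus strand: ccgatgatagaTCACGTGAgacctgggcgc
Atp6v0e, chr17:26676387-26676416, plus strand: tagcgcgccgaTCACGTGAgcctctgttga
Lamp1, chr8:13159054-13159160, plus strand: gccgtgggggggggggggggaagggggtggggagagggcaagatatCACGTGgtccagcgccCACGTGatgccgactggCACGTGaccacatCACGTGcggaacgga
Atp6v0b, chr4:117887330-117887411, minus strand: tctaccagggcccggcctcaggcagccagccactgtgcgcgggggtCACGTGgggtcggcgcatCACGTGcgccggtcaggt

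The Lamp1 promoter held 4 copies of CACGTG and none of TCACGTGA, and 8 of 32851 promoters (0.0244%) held 4 or more copies. When dye-positive cells were set against dye-negative cells, the members with TCACGTGA had log2FC values from -0.86 for Cd164 to 0.80 for Atp6v1a and Atp6v0e, with a median of 0.02. None of these 7 was differentially expressed (DE), that is, none passed an adjusted p of 0.05 and an absolute log2FC of 0.7, where 5.49% of all genes did. The median over the 28 other members with a promoter was 0.30, and the difference was not tested. A match says only that these letters are present.

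The members covered a wide range of levels in WT microglia. Cd68, a heavily glycosylated protein of late endosomes and lysosomes in macrophages, was the highest, with a median of 263.8 RPKM and a place at the 99.6th percentile of the listed genes. Laptm5, a lysosomal membrane protein of blood-derived lineages, followed at 238.9 RPKM, and Lamp1, a main glycoprotein of the lysosomal membrane, at 186.6 RPKM. Within V0, the WT medians were 45.1 RPKM for Tcirg1 (subunit a3), 35.9 for Atp6v0b (a proteolipid) and 18.9 for Atp6v0a1 (subunit a1). Within V1 they were 30.5 RPKM for Atp6v1c1 (subunit C), 29.3 for Atp6v1d (a rotor subunit) and 15.9 for Atp6v1g1 (a stalk subunit). Atp6ap1, an accessory protein of assembly, stood at 49.5 RPKM, and Atp6ap2, the other accessory protein, at 13.9 RPKM. The subunit genes thus differed in level although the complex needs them together, and the renal isoforms Atp6v0a4, Atp6v1b1 and Atp6v1g3 were not among the listed genes.

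**Figure D1:**
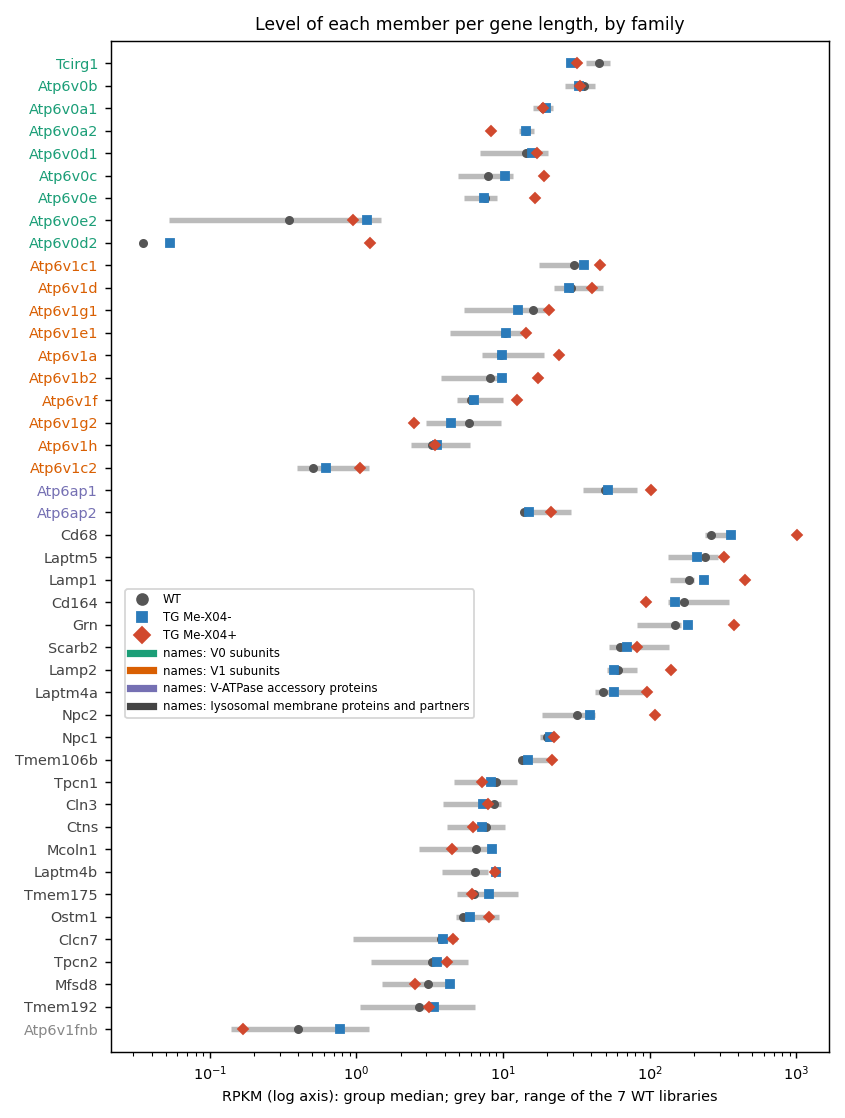
Level of the 44 members in RPKM on a log axis, with genes ordered by their WT median within each family. Symbols are the medians of WT (circle), TG Me-X04- (square) and TG Me-X04+ (diamond) and grey bars span the 7 WT libraries. Cd68 has the highest WT median, at 263.8 RPKM, and Atp6v0d2, with 0 reads in WT, has the lowest.

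The first question was how dye-positive differed from dye-negative microglia of the transgenic mice. The adjusted p came from limma with the Benjamini-Hochberg correction over all 17951 genes. By the rule above 7 of the 44 members were DE (15.9%), with 6 higher and 1 lower in dye-positive cells. Of all genes 5.49% were DE, 3.44% higher and 2.06% lower. The 6 higher members were Cd68, Npc2, Lamp2, Grn and Lamp1 of the membrane proteins and partners and Atp6v0d2 of V0, and the lower member was the V0 gene Atp6v0a2. The median log2FC was 0.27 over the members and -0.09 over all genes. Under scaling by the reads outside mitochondrial genes, 3 members were higher and 2 lower, where 6.43% of all genes were DE. In that fit the median over all genes was -0.46, Npc2, Grn and Lamp1 were no longer DE, and Cd164 was DE. Under quantile normalization 1 was higher and 2 were lower, where 4.61% of all genes were DE. There Cd68, Lamp2, Npc2, Grn and Lamp1 were no longer DE, and Cd164 was DE. Fitting only the libraries of these 2 groups left Cd68 and Lamp2, where 2.62% of all genes were DE. Atp6v0d2, Atp6v0a2, Npc2, Grn and Lamp1 thus lost their calls.

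**Figure D2:**
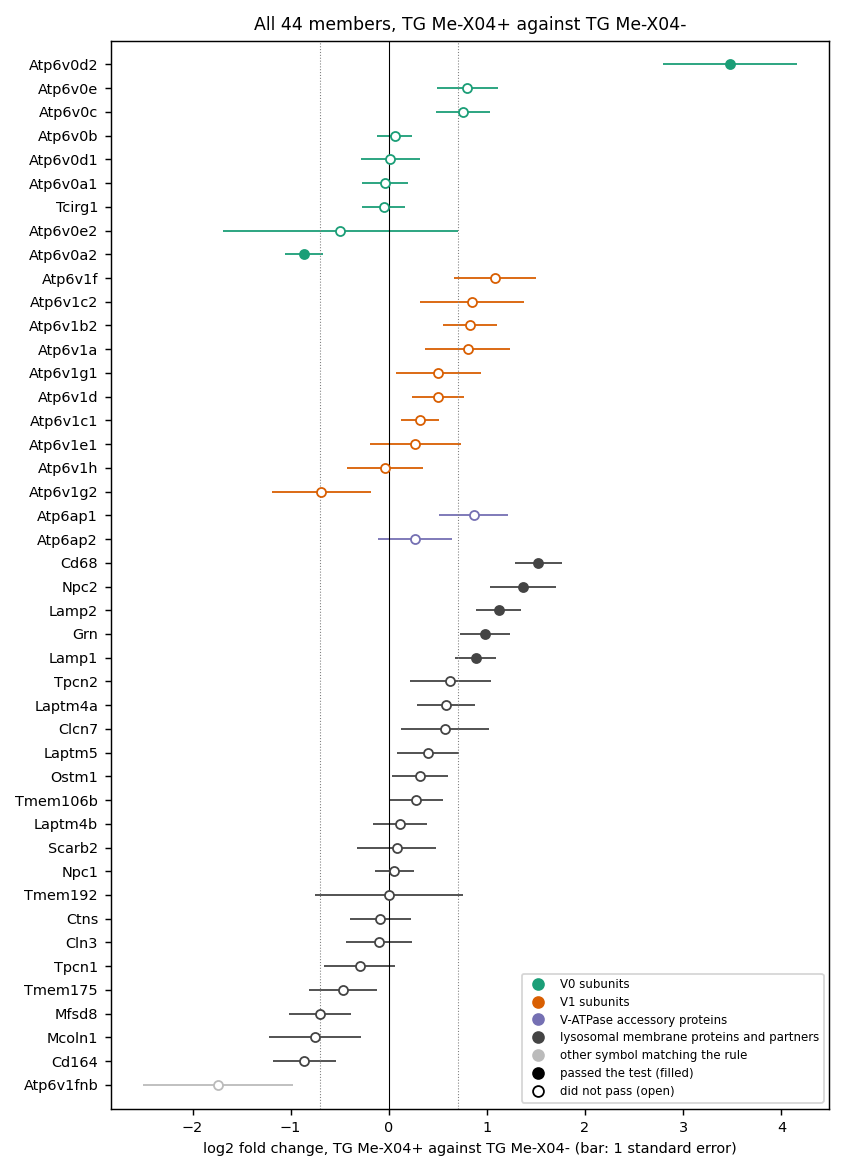
Log2 fold change of each of the 44 members, dye-positive against dye-negative cells of TG mice, with a bar of 1 standard error and genes grouped by family in colour. Filled circles passed the test, and dotted lines mark 0.7 in each direction. The 7 filled circles run from Atp6v0d2 at 3.47 to Atp6v0a2 at -0.87, and none lies among the V1 subunits.

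Among the membrane proteins and partners, 5 of 22 were DE, all higher, with a median log2FC of 0.19 over the 22, which became -0.20 under scaling by the reads outside mitochondrial genes. Cd68 (chromosome 11, 69664213 to 69666153, by Gencode vM21 on GRCm38, as for all positions of genes given here) read 8.81, 8.61, 8.34, 8.49 and 7.85 log2 RPKM in the 5 Me-X04- libraries and 9.53, 10.08, 9.87 and 10.29 in the 4 Me-X04+ libraries, against a WT range of 7.91 to 8.44 with a median of 8.04. Every Me-X04+ library lay above every other library. Its log2FC was 1.52 ± 0.24 (SE, adjusted p = 0.0013, limma), or 2.87-fold.

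Npc2 (chromosome 12, 84754562 to 84773152) hands cholesterol in the lysosomal lumen to the membrane protein Npc1. It read 4.86, 4.93, 5.86, 5.61 and 5.29 log2 RPKM in Me-X04- and 5.80, 6.34, 7.39 and 7.19 in Me-X04+, and 4.21 to 5.40 in WT with a median of 4.99. The lowest Me-X04+ library fell just under the highest Me-X04- library, yet Npc2 was higher in each of the 4 animals in which both fractions were sequenced, with differences between 0.94 and 1.58. Its log2FC was 1.37 ± 0.34 (SE, adjusted p = 0.024, limma). Its membrane partner Npc1 had a log2FC of 0.06 ± 0.20 and an adjusted p of 0.915.

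Lamp2 (chromosome X, 38401357 to 38456454), the glycoprotein that also serves chaperone-mediated autophagy, read 6.38, 6.55, 5.74, 5.83 and 5.60 log2 RPKM in Me-X04- and 7.26, 7.45, 6.98 and 6.86 in Me-X04+. In WT it lay between 5.67 and 6.36 with a median of 5.93. The 4 dye-positive libraries were above all others. Its log2FC was 1.12 ± 0.23 (SE, adjusted p = 0.0081, limma).

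Lamp1 (chromosome 8, 13159161 to 13175338) read 7.87, 7.89, 7.96, 7.79 and 7.52 log2 RPKM in Me-X04- and 8.25, 8.79, 8.91 and 8.82 in Me-X04+. It was DE with a log2FC of 0.88 ± 0.21 (SE, adjusted p = 0.0185, limma), from a dye-negative mean of 7.81 ± 0.17 (SD, n = 5) to a dye-positive mean of 8.69 ± 0.30 (SD, n = 4). Grn (chromosome 11, 102430315 to 102437048), which encodes progranulin, read 7.41, 7.51, 7.70, 7.69 and 7.27 log2 RPKM in Me-X04- and 7.94, 8.36, 8.96 and 8.73 in Me-X04+. It was DE with a log2FC of 0.98 ± 0.26 (SE, adjusted p = 0.032, limma), from 7.52 ± 0.19 (SD, n = 5) to 8.497 ± 0.45 (SD, n = 4). Neither gene overlapped between the fractions, and both rose in 4 of 4 animals. Of the exon bases, 9.31% in Lamp1 and 1.96% in Grn are shared with a gene on the opposite strand, and strand-specific counting is not stated.

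The other 17 membrane members were not DE, with log2FC values from -0.86 for Cd164 to 0.63 for Tpcn2. Cd164 (chromosome 10, 41519414 to 41531048), a sialomucin of endosomes and lysosomes, read 7.74, 8.40, 7.14, 7.04 and 7.21 log2 RPKM in Me-X04- and 6.60, 7.06, 6.52 and 6.39 in Me-X04+. It was lower in 4 of 4 animals, but its adjusted p was 0.14 (limma), and with the animal as a block in the TG libraries alone the log2FC was -0.93 with an adjusted p of 0.012. Of the ion channels, Mcoln1 (the calcium channel TRPML1) had a log2FC of -0.75 ± 0.47, Tmem175 (a potassium and proton channel) -0.47 ± 0.35, Tpcn1 -0.30 ± 0.36 and Tpcn2 0.63 ± 0.41. In sets A and B the difference was -0.98 and -0.29 for Mcoln1 and -0.99 and 0.42 for Tpcn1. A gene on the opposite strand shares 35.3% of the exon bases of Tmem175. The chloride and proton exchanger Clcn7 and its partner Ostm1 had 0.57 ± 0.45 and 0.32 ± 0.29. Scarb2, the carrier of glucocerebrosidase, had 0.08 ± 0.40. None of these channel, exchanger and carrier genes passed the test.

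**Figure D3:**
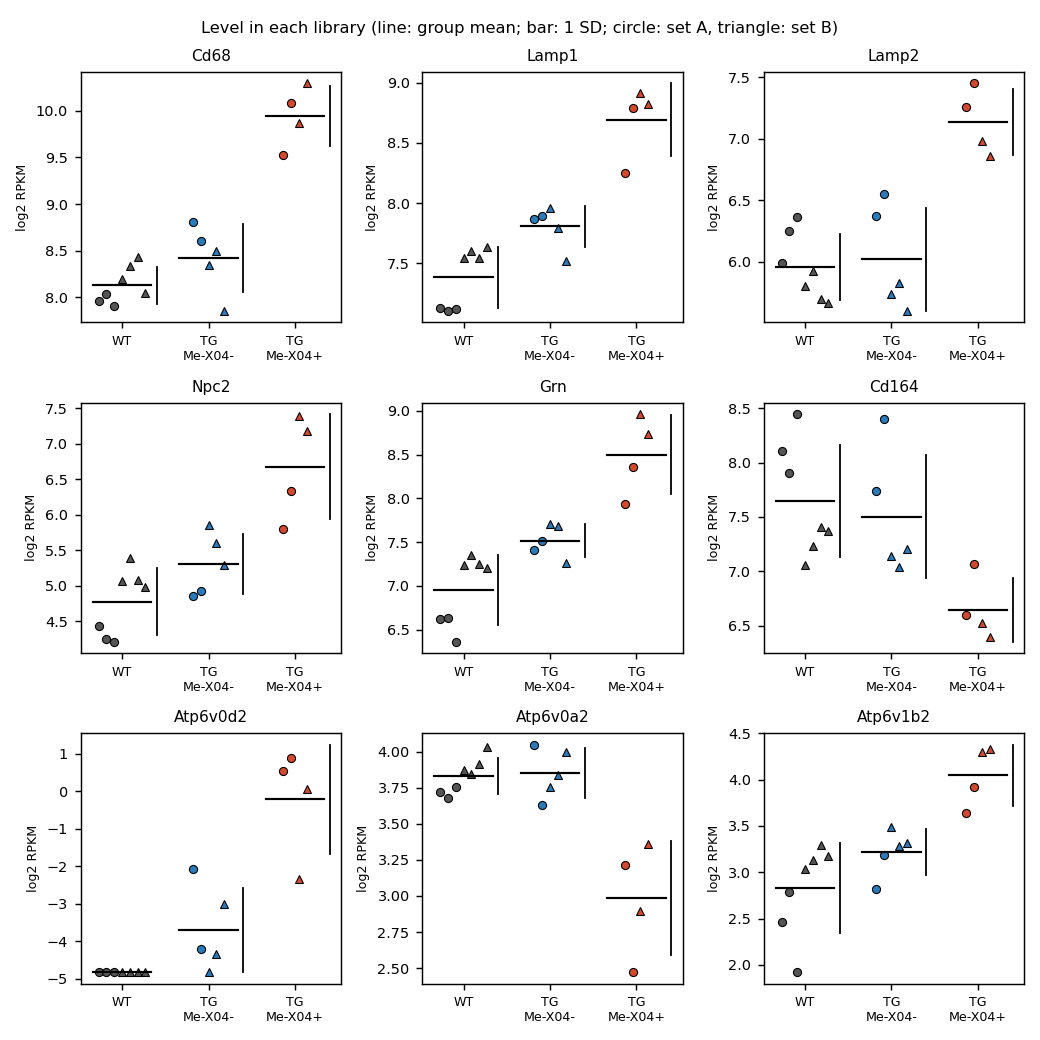
Log2 RPKM of 9 members in each of the 16 libraries by group, with the group mean as a line and 1 SD as a bar, and with circles for set A and triangles for set B. The 4 TG Me-X04+ libraries of Cd68, Lamp1, Lamp2 and Grn lie above all others, those of Atp6v0a2 lie below all others, and Atp6v0d2 is at its floor in the 7 WT libraries.

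In the V0 sector, 2 of 9 subunits were DE, in opposite directions, and the median log2FC was 0.02, which became -0.38 under scaling by the reads outside mitochondrial genes. Atp6v0d2 (chromosome 4, 19876841 to 19922605), the d isoform of osteoclasts and macrophages, had 9, 1, 0, 1 and 6 reads in the Me-X04- libraries and 51, 74, 10 and 64 in Me-X04+. All 7 WT libraries had 0 reads. The dye-positive libraries were high except replicate 3, whose log2 RPKM of -2.35 was below the -2.08 of Me-X04- replicate 1, so the groups overlapped, while Atp6v0d2 was higher in 4 of 4 animals. The log2FC was 3.47 ± 0.68 (SE, adjusted p = 0.0064, limma) on values with the authors' prior in them. This SE pools the spread of all 3 groups, and the SD was 1.46 in Me-X04+, 1.12 in Me-X04- and 0 in WT. WT adds no spread because all its libraries sit at the floor, and the call was lost with only the 2 fractions fitted. On reads alone the mean was 1.10 ± 0.71 RPKM (SD, n = 4) against 0.0648 ± 0.0837 RPKM (SD, n = 5), a ratio of 17.0. Its paralog Atp6v0d1, the widely expressed d isoform, had a log2FC of 0.02 ± 0.30.

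Atp6v0a2 (chromosome 5, 124628576 to 124724455), the a isoform known from the Golgi and endosomes, read 4.05, 3.63, 3.75, 3.84 and 4.00 log2 RPKM in Me-X04- and 3.22, 2.47, 2.90 and 3.36 in Me-X04+, and 3.68 to 4.03 in WT with a median of 3.85. The dye-positive libraries were below all others. Its log2FC was -0.87 ± 0.19 (SE, adjusted p = 0.0136, limma). An antisense gene shares 663 of its 6726 exon bases, so its reads could be mixed with those of the antisense gene. The other a isoforms gave -0.05 ± 0.22 for Tcirg1, which is best known from osteoclasts, and -0.04 ± 0.23 for Atp6v0a1.

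The remaining V0 genes were not DE. The proteolipid Atp6v0c had a log2FC of 0.76 ± 0.27 (adjusted p = 0.125, limma) and Atp6v0e 0.80 ± 0.31 (adjusted p = 0.158, limma). Without Me-X04+ replicate 1, both passed, at 1.03 (adjusted p = 0.0255, limma) and 1.18 (adjusted p = 0.0121, limma). The other proteolipid, Atp6v0b, gave 0.06 ± 0.18, and an antisense gene shares 11.8% of its exon bases. Atp6v0e2 varied from 0 to 291 reads between libraries and had a log2FC of -0.49 ± 1.19.

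In the V1 sector, none of 10 subunits was DE, with 2 at an unadjusted p under 0.05, although 8 of 10 had a log2FC above 0 and the sector had a median of 0.50, or 0.11 under scaling by the reads outside mitochondrial genes. Among all genes, 7964 of 17951 were above 0. The genes of the ring that splits ATP gave 0.80 ± 0.43 for Atp6v1a (subunit A) and 0.83 ± 0.27 for Atp6v1b2 (the widely expressed B isoform). The rotor subunit Atp6v1f had 1.08 ± 0.42 and the stalk isoform Atp6v1g2, best known from neurons, -0.69 ± 0.50. Atp6v1b2 read 2.82, 3.19, 3.48, 3.29 and 3.32 log2 RPKM in Me-X04- and 3.64, 3.92, 4.30 and 4.33 in Me-X04+. Its 2 fractions did not overlap, and its adjusted p was 0.0887 (limma). It passed with limma voom on the recovered reads (adjusted p = 0.0491) and with the animal as a block in the TG libraries alone (0.85, adjusted p = 0.0285).

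Each library's median over the V1 subunits was 2.56 to 3.36 log2 RPKM in Me-X04- and 3.38 to 4.20 in Me-X04+, and 2.502 to 3.22 in WT. The same median over V0 was 3.55 to 3.87 in Me-X04- and 3.24 to 4.28 in Me-X04+. The membrane proteins and partners gave 3.45 to 4.09 and 3.68 to 3.96. Of these 3 families, V1 was the one in which every dye-positive library stood above every dye-negative one, by a margin smaller than the range within either group. No test was made on these medians.

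**Figure D4:**
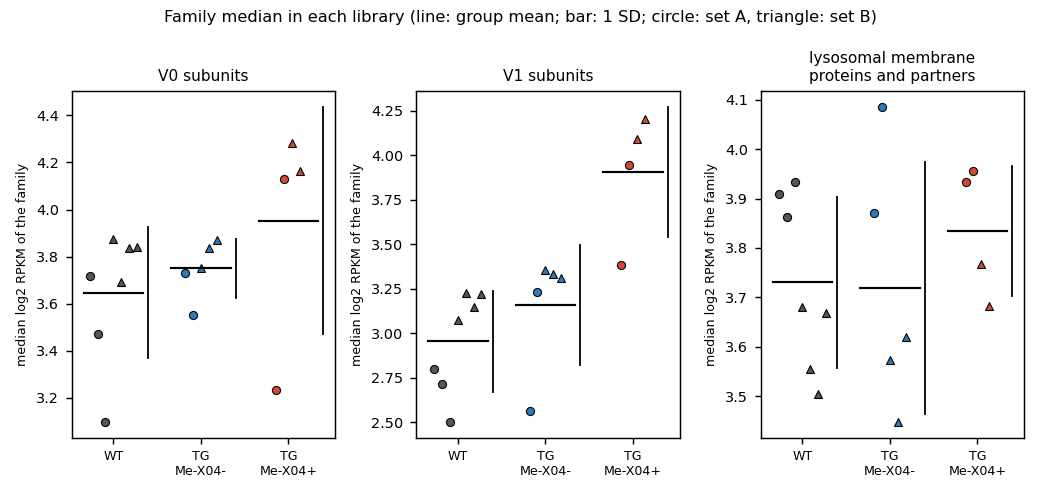
Median log2 RPKM over the V0 subunits, the V1 subunits and the lysosomal membrane proteins and partners in each library, by group, with the group mean as a line, 1 SD as a bar, circles for set A and triangles for set B. The V1 medians of TG Me-X04+ (3.38 to 4.20) start just above those of TG Me-X04- (up to 3.36), and the other families overlap.

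The 2 accessory genes were not DE. Atp6ap1 had a log2FC of 0.86 ± 0.35 (adjusted p = 0.186, limma) and Atp6ap2, the prorenin receptor, 0.26 ± 0.38. Over all members, 6 of 44 did not overlap between the fractions, 5 of them higher, where 7.93% of all genes did not overlap, and 4.8% of all genes were higher without overlap. By animal, 16 of 44 members (36.4%) were higher in all 4 pairs and 4 (9.09%) lower in all 4, where 15.1% and 13.1% of all genes were.

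Of the 7 calls, Cd68, Lamp2 and Atp6v0d2 remained with any 1 of the 9 TG libraries left out. These fits kept the 7 WT libraries, which for Atp6v0d2 all lie at the floor. Npc2 lost its call without Me-X04- replicate 1 (adjusted p = 0.0549), 2 (0.0512) or 5 (0.0554) or without Me-X04+ replicate 3 (0.0743) or 4 (0.0635). Grn lost it without Me-X04- replicate 1 (adjusted p = 0.062), 2 (0.051) or 5 (0.0844) or without Me-X04+ replicate 2 (0.0593), 3 (0.0904) or 4 (0.0713). Lamp1 lost it without Me-X04- replicate 5 (adjusted p = 0.0532) or Me-X04+ replicate 2 (0.052) or 3 (0.0522), all by limma. Atp6v0a2 moved to -0.70, short of the fold threshold, without Me-X04+ replicate 2.

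Many members differed between the 2 sets of libraries whatever the group. 8 of 44 members (18.2%) did not overlap between set A and set B over all 16 libraries, against 10.1% of all genes, 4 higher in each set. Scarb2, Atp6ap2, Ostm1 and Tmem106b were higher in set A, and Atp6v1e1, Cln3, Ctns and Mcoln1 in set B (named after their values were seen). Scarb2 read 6.69 to 7.32 log2 RPKM in set A and 5.61 to 6.13 in set B. Within the sets, the difference between the dye fractions was 1.10 in A and 1.85 in B for Cd68, 1.17 and 1.70 for Npc2, 0.89 and 1.2 for Lamp2, 0.69 and 1.29 for Grn, and 0.63 and 1.11 for Lamp1. It was 3.87 and 2.90 for Atp6v0d2 and -0.99 and -0.74 for Atp6v0a2. These rest on 2 against 2 libraries in A and 2 against 3 in B and carry no test. The median over V1 was 0.35 in A and 0.54 in B, over V0 0.09 and -0.03, and over the membrane proteins and partners -0.03 and 0.39. With a term for the sets in the fit, 12 members were DE, 10 higher and 2 lower, where 11.9% of all genes were.

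The second question was whether dye-negative microglia of the transgenic mice differed from WT microglia. None of the 44 members was DE by limma, where 0.201% of all genes were, 0.189% higher and 0.0111% lower, and 2 members, Grn and Lamp1, had an unadjusted p under 0.05. No member was DE under limma voom either. The groups overlapped for all 44 members, where 1.06% of all genes did not overlap and 0.652% were higher without overlap. Grn went from 6.95 ± 0.40 in WT (SD, n = 7) to 7.52 ± 0.19 in Me-X04- (SD, n = 5), with a log2FC of 0.56 (95% interval 0.09 to 1.03), and its adjusted p of 0.795 was the smallest of the members. Lamp1 had 0.42 ± 0.18 and an adjusted p of 0.896. The median log2FC was 0.18 over V0, 0.05 over V1, 0.09 over the membrane proteins and partners and 0.01 over all genes.

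Against WT, the dye-positive microglia differed in 12 of 44 members (27.3%), 10 higher and 2 lower, where 14.3% of all genes were DE, 8.25% higher and 6.02% lower. The dye-positive libraries enter this comparison as well as the first, so both share samples. The groups did not overlap for 9 members, 8 of them higher, where 10.5% of all genes did not overlap and 6.56% were higher without overlap. Npc2 had a log2FC of 1.90 ± 0.32, Cd68 1.81 ± 0.22, Grn 1.54 ± 0.24, Lamp1 1.31 ± 0.19 and Lamp2 1.18 ± 0.21. Atp6v0d2, at 0 reads in WT, was at least 19.8-fold higher in the dye-positive mean, taking the floor as 3 reads per WT library. The lowest dye-positive library, replicate 3, was 2.9-fold over the same floor.

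Between the fractions, 2 of the 21 V-ATPase subunit and accessory genes (9.52%) were DE, where 5.49% of all genes were. Against WT, 6 of the 21 (28.6%) were DE, where 14.3% of all genes were. Besides Atp6v0d2, the higher ones were Atp6v1b2 at 1.22 ± 0.25 (adjusted p = 0.003, limma), Atp6v0c at 1.08 ± 0.25 (adjusted p = 0.0075, limma), Atp6ap1 at 1.03 ± 0.33 (adjusted p = 0.0437, limma) and Atp6v0e at 0.98 ± 0.29 (adjusted p = 0.0292, limma). Atp6v0a2 was lower at -0.84 ± 0.18 (adjusted p = 0.0036, limma) and Cd164 at -1.003 ± 0.30 (adjusted p = 0.0309, limma). Atp6v1c1 passed the adjusted p (0.0199, limma) with a log2FC of 0.65, under the fold threshold. Whether these changes were larger than those between the fractions was not tested.

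Of these 12, Atp6ap1 was no longer DE without WT replicate 4, 5, 6 or 7 or Me-X04+ replicate 1, 2 or 3, with adjusted p values from 0.0636 to 0.176. Atp6v0e was lost without WT replicate 4, 6 or 7 or Me-X04+ replicate 2, 3 or 4 (adjusted p from 0.0533 to 0.119), and Cd164 without WT replicate 1, 2 or 3 or Me-X04+ replicate 1, 3 or 4 (adjusted p from 0.051 to 0.0793), all by limma. Atp6v0a2 fell under the fold threshold, at -0.67, without Me-X04+ replicate 2. The other 8 remained whichever library was left out.

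Paralogs were then compared within each library as the log2 ratio of their RPKM, which does not depend on library scaling. Of 27 ratio tests over 9 pairs and 3 comparisons, none passed an adjusted p of 0.05 in the exact permutation test (both sides), and 4 had an unadjusted p under 0.05. Atp6v0d2 to Atp6v0d1 had a mean log2 ratio of -4.31 ± 2.00 (SD, n = 4) in Me-X04+, -7.77 ± 1.30 (SD, n = 5) in Me-X04- and -8.55 ± 0.49 (SD, n = 7) in WT, where it depends on the prior. Between Me-X04+ and WT the groups did not overlap, with an exact permutation p of 0.00303, the smallest this design allows, and an adjusted p of 0.0818.

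For subunit a, the ratio of Atp6v0a2 to Atp6v0a1 was -1.03 ± 0.69 (SD, n = 4) in Me-X04+, -0.20 ± 0.38 (SD, n = 5) in Me-X04- and -0.39 ± 0.11 (SD, n = 7) in WT. Its change between the fractions was -0.83 (exact permutation p = 0.0556, adjusted p = 0.25). Tcirg1 to Atp6v0a1 differed by -0.01 between the fractions (exact permutation p = 0.96). For the endolysosomal cation channels, Tpcn2 to Tpcn1 was -0.69 ± 0.65 in Me-X04+ and -1.61 ± 0.59 in Me-X04-, a change of 0.92 (exact permutation p = 0.0556, adjusted p = 0.25).

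Lamp2 to Lamp1 changed by 0.23 between the fractions (exact permutation p = 0.429), while both genes were DE. These tests treat the libraries as independent. Within the 4 animals with both fractions, Lamp2 to Lamp1 was higher in 4 of 4 (mean change 0.20), Atp6v0d2 to Atp6v0d1 higher in 4 of 4 (3.68) and Atp6v0a2 to Atp6v0a1 lower in 4 of 4 (-0.87), each with an exact permutation p of 0.125, the smallest that 4 pairs allow. The stalk pair Atp6v1g2 to Atp6v1g1 changed by -1.19 (exact permutation p = 0.23), Atp6v0e2 to Atp6v0e by -1.29 (p = 0.437, exact permutation), Atp6v1c2 to Atp6v1c1 by 0.53 (p = 0.373, exact permutation) and Laptm4b to Laptm4a by -0.47 (p = 0.381, exact permutation). The spread of several ratios was wide because 1 gene of the pair was low. Atp6v1c2, for instance, had between 11 and 70 reads.

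**Figure D5:**
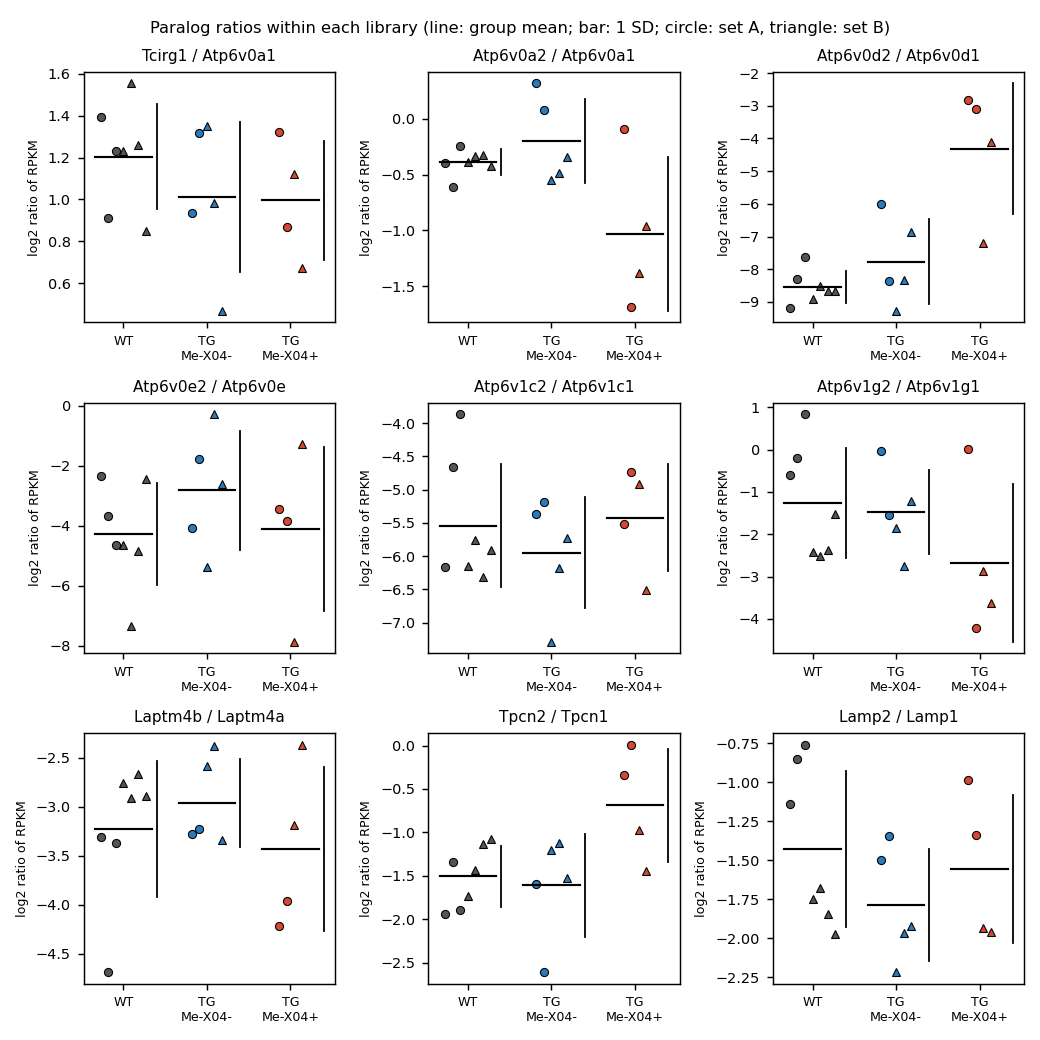
Log2 ratio of RPKM within each library for 9 pairs of paralogs by group, with the group mean as a line, 1 SD as a bar, circles for set A and triangles for set B. TG Me-X04+ libraries of Atp6v0d2 to Atp6v0d1 lie above the 7 WT libraries, and no ratio test passed the adjusted threshold.

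Other genes of the same pathway were read from 4 lists that hold no member, and the shares DE, from 0 to 8.33% of a list, were near the 5.49% of all genes. Of 15 genes of V-ATPase assembly and regulation, none was DE between the dye fractions by limma, with 2 at an unadjusted p under 0.05 and a median log2FC of 0.06. Of 12 genes of the Ragulator and Rag GTPases, which tie the pump to mTORC1 at the lysosome, 1 was DE, Rragd, higher by 1.92 ± 0.54 (adjusted p = 0.0463, limma). Of 12 genes that position lysosomes on microtubules, 1 was DE, the BORC subunit Borcs5, at -2.31 ± 0.57 (adjusted p = 0.023, limma). Both genes were low, with mean log2 RPKM in Me-X04- and Me-X04+ of -0.59 and 1.32 for Rragd and -0.31 and -2.62 for Borcs5. The calls in these 4 lists were not read under the other settings. Of 30 other lysosomal membrane proteins, 2 were DE, both higher. Slc15a3, a peptide and histidine transporter, had 0.99 ± 0.23 (adjusted p = 0.0189, limma), and Litaf, an adaptor of late endosomes, 0.76 ± 0.22 (adjusted p = 0.0499, limma).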

How the data were processed

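RNA of sorted microglia was amplified with the Ovation RNA-Seq System V2 and sequenced, by the methods of the study, on 2 models of sequencer, with no record used here of which library ran on which. The authors trimmed reads (Trim Galore 0.4.4), aligned them to GRCm38 with STAR 2.5.4b, counted them with featureCounts on Gencode M16 and kept genes by filterByExpr of edgeR 3.24.3, versions as in the submitters' processing notes. The deposited values are log2 RPKM per gene and library, made by the authors from TMM-scaled libraries with a prior of 2 reads. Whole reads were recovered from them within 0.01 of a read. The authors' own fold changes and p values are in the same table and were not used.

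The values of all 17951 genes and 16 libraries were fitted with limma 3.58.1 (R 4.3.3, trend on), 1 mean per group. This fit took the place of the quasi-likelihood test of the study, because the deposited values are log2 RPKM. The recovered reads were used for limma voom as an alternative, and the quasi-likelihood test was not run on them. Genes passed with an adjusted p below 0.05 and a log2FC of 0.7 or more in either direction. Intervals are at 95%. The script was tested on simulated data. The dye fractions were paired by the number in their titles, taken as the animal. Deviations from group means correlated at 0.292 to 0.329 within the 4 animals and at 0.221 to 0.332 between different animals of the same set of libraries, so these correlations do not tell animals apart from sets. Members and lists were chosen with earlier results of these data known. Genes named with values were the DE members, in each family the 3 highest in WT and the one with the lowest fold change, the paralog pairs, and the DE genes of the pathway lists, with each library's value for the 3 DE members of a family that changed most. Each library's values for Lamp1, Grn, Cd164 and Atp6v1b2 were given outside this rule. Others are named for their role. Alternatives covered normalization, weights, filters, the samples fitted, voom, a block on the replicate number, a block on the animal in TG libraries, the 2 sets of libraries and each library left out.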

Additional observations from a re-analysis of the deposited data

Results flagged for a closer look

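In each group of 4 to 7 libraries, the lowest and the highest value of every member were compared with their neighbours, and 7 of the 132 groups of values held a library far from the others, where chance gives about 1 in 20. All are log2 RPKM. Atp6v0a1, the a1 subunit of V0, read 3.31 in TG Me-X04+ replicate 1 and at least 4.156 in the other 3. Atp6v0e read 3.578 in TG Me-X04- replicate 3, above 2.929 as the next. Atp6v1c1, subunit C of V1, read 4.137 in WT replicate 3, below 4.713. The calcium channel gene Mcoln1 read 1.422 in WT replicate 2, below 2.378, and Mfsd8 read 0.5883 in WT replicate 3, below 1.547. Tmem192 read -0.09599 in TG Me-X04- replicate 2, below 1.747, and Tpcn1 read 3.358 in TG Me-X04- replicate 5, above 3.053.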

How the results depend on the processing

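There were 762 values under another setting, for the members DE in any comparison and for the paralog ratios. Of these, 689 kept their side of the threshold, 60 kept the direction but lost the call and 13 gained one. Each paralog ratio entered only with its exact permutation test within the 4 animals, where p cannot go under 0.125. The ratio values therefore could not cross the threshold and are counted in the 689. The 689 include every value of TG Me-X04- against WT, where no member was DE under any setting. No called value changed sign, while values near 0 that were not called did so for Atp6ap1, Atp6v0a2 and Lamp2 in TG Me-X04- against WT. Between the dye fractions, the count of 7 DE members became 3 under quantile normalization, where 4.61% of all genes were DE. It became 2 with only the libraries compared (2.62% of all genes) and 12 with a term for the 2 sets of libraries (11.9%). It ran from 4 to 9 with each library left out in turn. The cause was not tested, except that fewer libraries were fitted in the second and the last case. Against WT, 9 to 12 members were DE with a library left out and 8 to 14 under the other settings. Under those other settings 11.7% to 21.8% of all genes were DE. TG Me-X04- gave 0 members against WT under every setting. Scaling by reads outside mitochondrial genes moved the median log2FC between the dye fractions to -0.38 for V0, 0.11 for V1 and -0.20 for the membrane proteins and partners.

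With the replicate number as a replicate block over all 16 libraries, 7 members were DE between the fractions, where 4.98% of all genes were. This block also ties WT mice to TG animals that share only a number, so its values against WT are not given. The block on the animal in the TG libraries alone, chosen after seeing the data, gave 9 DE members, where 6.01% of all genes were. The 9 were the 7 together with Atp6v1b2 and Cd164. Depth limits the low genes most, such as Atp6v0d2 at 0 to 74 reads.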

Other observations

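Across the 4 animals with both dye fractions, 11 of 44 members (25%) ranked the animals in the same order in both fractions, as did 11.4% of all genes. Both fractions of animals 1 and 2 lie in set A and those of animals 3 and 4 in set B, so a shared order and the sets cannot be told apart. One of these was Atp6v0e2, a V0 gene named here after its values were seen. It had 11, 78, 12 and 291 reads in the dye-negative and 13, 41, 1 and 272 reads in the dye-positive libraries of animals 1 to 4. Animal 4 was thus the highest in both fractions, while replicates of WT ran from 0 to 43 reads.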
